A study of Mus musculus with 12 samples.

Results

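The genes described here are 8 genes of antigen presentation by major histocompatibility complex (MHC) class II: H2-Aa, H2-Ab1, H2-Eb1, Cd74, H2-DMa, H2-DMb1, H2-Oa and Ciita. They were chosen by gene symbol, not by a measured value, and are 8 of the 55335 gene rows in the deposited count tables. The study profiled thymocytes, the developing T cells of the thymus, of 6-week-old mice by RNA-seq and by ribosome footprinting, which sequences the stretches of mRNA that ribosomes shield from nuclease. In each assay 3 libraries came from wild-type (WT) mice and 3 from mice that lack the microRNA genes miR-181a/b-1 (KO), giving 12 libraries in 4 groups. All mice were kept free of specific pathogens, and no strain, sex or allele beyond the KO is labelled. Cells of both genotypes passed a 70 µm strainer and went at once into buffer with 0.1 mg/ml cycloheximide, which holds ribosomes in place. No sorting step is labelled, so cells other than thymocytes that pass such a strainer may be among those profiled.

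Class II molecules are pairs of an alpha and a beta chain that carry peptides from endosomes to the cell surface, where CD4 T cells read them. The invariant chain blocks the peptide groove of new molecules and guides them to endosomes, DM there helps to exchange its last fragment for other peptides, and DO restrains DM. In the thymus the molecules are carried mainly by cortical and medullary epithelium, dendritic cells, B cells and macrophages, which present peptides to thymocytes during their selection, while mouse thymocytes themselves make little. The transactivator CIITA switches the genes on through a promoter module of X and Y boxes that is bound by RFX, CREB and NF-Y.

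The Y box and X box windows are shown because they are the promoter sequences through which these genes are known to be switched on, and the choice of genes did not use them. RefSeq promoter sequences of build GRCm38.p6, reaching from 250 bases before to 50 bases after the start of a gene, were found for 5 of the 8 genes by symbol, with 6 entries in all, and not for H2-Ab1, Cd74 and Ciita. The motifs were searched on both strands as the letters TGATTGG for the Y box, ATTGG for its core, which lies inside those letters, and AGCAAC for an X box core. In the lines below each window has 30 bases, is written 5′ to 3′ in the direction of the gene, and has the motif in capitals.
H2-Oa X box core: acttccttgcccAGCAACaaacccattatc
H2-Oa Y box: gagaactgctcTGATTGGctgcttaccgca
H2-Eb1 X box core: gaatctctaactAGCAACtgatgatgctgg
H2-Eb1 Y box: tcctttgatgcTGATTGGctcccagcactg
H2-Aa Y box: agagaattttcTGATTGGttctggcgagtt
H2-DMb1 Y box: gattcactcagTGATTGGtctgacctgcct
The H2-Oa windows lie on the plus strand at chr17:34092290-34092319 and chr17:34092323-34092352, where the motifs begin 77 and 45 bases upstream of the gene's start. Those of H2-Eb1 lie on the plus strand at chr17:34305763-34305792 and chr17:34305795-34305824, 92 and 61 bases upstream. The H2-Aa window lies on the minus strand at chr17:34287855-34287884, 50 bases upstream, and the H2-DMb1 window on the plus strand at chr17:34153117-34153146, 63 bases upstream. The full Y box stood in the direction of the gene in 4 of the 5 genes with a sequence, and the X box core in 2. H2-DMa held neither in its 2 entries, and 1 of them held the core ATTGG 198 bases upstream. Over all 32851 promoter sequences of the same length, 7.82% held TGATTGG on either strand, 37.4% held ATTGG and 14.8% held AGCAAC. In 1.82% of them TGATTGG lay in the direction of the gene between 30 and 100 bases upstream. These matches describe letters and not binding, which was not measured.

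Reads in genes numbered 4479182 to 8180286 per RNA-seq library and 4069968 to 17859770 per footprint library. The lowest library was KO replicate 2 in RNA-seq and KO replicate 3 in footprints. The row of the deleted Mir181a-1 had 132.6 to 166 CPM (TMM-scaled counts of a gene relative to the library total) in the WT footprint libraries and 0.464 to 1.04 CPM in the KO ones. In RNA-seq the row had 0.964 to 3.97 CPM under the label WT and 2.34 to 5.12 CPM under the label KO, so it checks the footprint labels only, and directions in RNA-seq rest on the labels. The thymocyte markers were abundant, Rag1 alone at 7173 CPM in the mean of the libraries labelled WT and 5755 CPM in that of the libraries labelled KO. The deposited counts have an unusual property: the deviations of same-numbered WT and KO libraries from their group means mirrored each other, with correlations across genes of -0.99 to -0.979 in RNA-seq and -0.992 to -0.991 in footprints. The spread within a group may therefore not be the spread between mice, and the p-values measure only the spread between these libraries. Those p-values take the libraries as independent, which the mirroring contradicts, so they may be too small. Each FDR below is the Benjamini-Hochberg adjusted p of edgeR's quasi-likelihood test over all genes of the assay, a gene was called at an FDR under 0.05, and log2 changes are log2 fold changes of KO against WT. For called genes among the 8 and in the pathway and marker lists, the fate of the call with the replicate number as a block is given beside it or for the list.

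None of the 8 genes was called in RNA-seq, and 2 were called in footprints, H2-Ab1 lower and H2-Oa higher in KO. In RNA-seq 6.91% of 13652 genes tested were called. In footprints 17.6% of 13509 were, 9.25% higher and 8.34% lower, so the count of 2 of 8 does not set these genes apart from genes at large. All 8 passed the filter on low counts in both assays. In RNA-seq 7 of the 8 log2 fold changes were negative, with a median of -0.30, beside a median of -0.00053 over all genes tested. In footprints 6 of 8 were negative, with a median of -0.20 beside -0.0090. Of the 8, only H2-Oa had an unadjusted p under 0.05 in RNA-seq (edgeR; 23.8% of all genes did), and DESeq2 called 0 of the 8 there against 3.93% of all genes. In footprints 3 of the 8 had an unadjusted p under 0.05 (33.1% of all genes) and DESeq2 called 3, H2-Ab1, Cd74 and H2-Oa (10% of all genes). With the replicate block 0 of the 8 were called in either assay, beside 0.806% of all genes in RNA-seq and 3.02% in footprints.

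**Figure D1:**
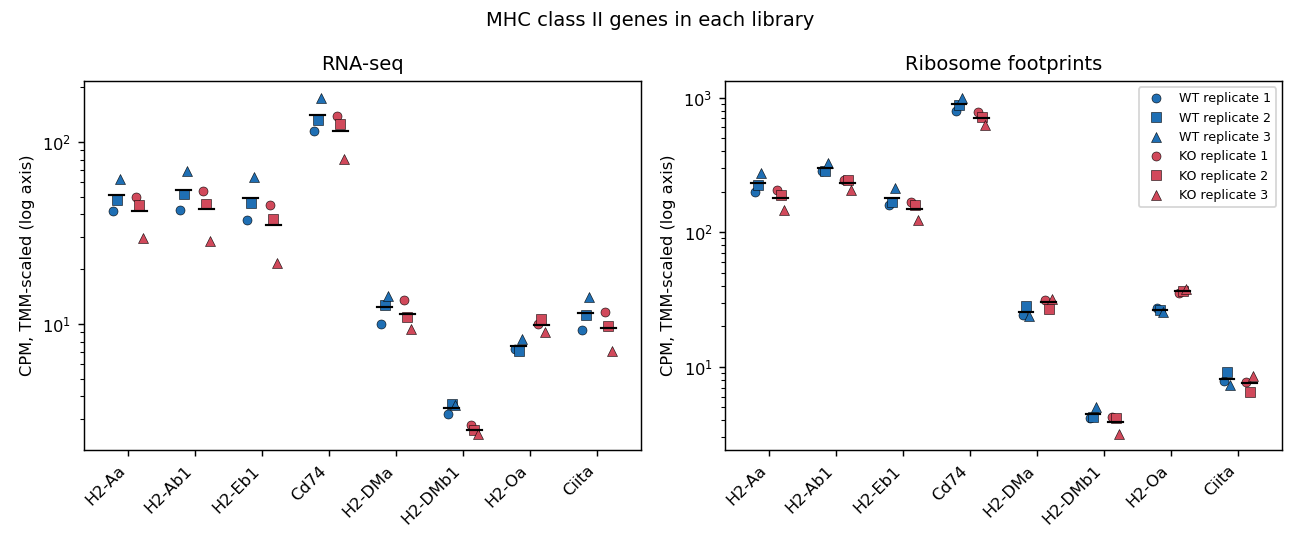
Level of each of the 8 genes in every library, in TMM-scaled CPM on a log axis, for RNA-seq (left) and footprints (right). Each symbol is 1 library, its shape gives the replicate number, blue is WT, red is KO, and the bar is the mean of 3 libraries; H2-Oa is the gene whose KO libraries all lie above WT in both assays.

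H2-Aa encodes the alpha chain of the class II molecule I-A. In RNA-seq it had 42.0, 47.8 and 62.8 CPM in the libraries labelled WT 1, 2 and 3 and 50.03, 44.99 and 29.8 CPM in those labelled KO, with a log2 change of -0.31 (SE 0.23, edgeR FDR 0.471). In footprints it had 199, 223 and 278 CPM in WT and 207, 188 and 145 CPM in KO (-0.35, SE 0.16, edgeR FDR 0.180). The groups overlapped in both assays, and in both the highest library was WT replicate 3 and the lowest KO replicate 3.

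H2-Ab1 encodes the beta chain that pairs with H2-Aa. Its RNA level was 42.5, 52.0 and 69.6 CPM in the libraries labelled WT and 53.8, 45.7 and 28.4 CPM in those labelled KO (log2 change -0.37, SE 0.27, edgeR FDR 0.460). Its footprints were at 284, 283 and 329 CPM in WT and 245, 244 and 208 CPM in KO. Every KO footprint library lay below every WT library, where the RNA-seq groups overlapped. The footprint mean fell from 299 ± 26.3 CPM to 232 ± 21.2 CPM (SD, n = 3), a log2 change of -0.36 (SE 0.09, edgeR FDR 0.0362). The call was lost with the replicate block (FDR 0.115) and on the omission of any 1 of the 6 footprint libraries (FDR 0.0555 to 0.0734), although it stood without replicate 3 of both genotypes (FDR 0.0407, with a log2 change of -0.215). The authors' deposited table also gives H2-Ab1 as lower in footprints, with a log2 change of -0.34 and an adjusted p of 0.00155.

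H2-Eb1 encodes the beta chain of the other class II molecule, I-E. It had 37.4, 46.5 and 64.1 CPM in RNA-seq of the libraries labelled WT and 45.1, 37.9 and 21.7 CPM in those labelled KO (log2 change -0.52, SE 0.30, edgeR FDR 0.359). This was the widest span of the 8 genes, the highest RNA-seq library lying 2.95-fold above the lowest. Its footprints were at 159, 168 and 211 CPM in WT and 168, 159.6 and 123 CPM in KO (-0.24, SE 0.15, edgeR FDR 0.310), and the groups overlapped in both assays.

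The alpha chain that pairs with H2-Eb1 is encoded by H2-Ea, a symbol under which no row was found. RefSeq lists that symbol as a synonym of H2-Ea-ps. That row held 1 read in RNA-seq, in a library labelled WT, and 0 in footprints, for which the limit is 0.0654 CPM in WT and 0.0987 CPM in KO (3 counts over the reads of the group, counting error only).

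Cd74, the invariant chain, carried the largest share of the reads of the 8 genes, 42.8% of their summed CPM in RNA-seq and 53.1% in footprints. In RNA-seq it had 115, 132 and 175 CPM in the libraries labelled WT and 139.7, 125 and 81.0 CPM in those labelled KO (log2 change -0.29, SE 0.24, edgeR FDR 0.506). In footprints it had 798, 888 and 996 CPM in WT and 785, 712 and 625 CPM in KO (-0.34, SE 0.11, edgeR FDR 0.0812). The footprint groups did not overlap, but WT replicate 1 and KO replicate 1 lay closer to each other than either did to the other libraries of its genotype. DESeq2 on the same counts gave an adjusted p of 0.00904 and the authors' deposited table one of 0.00892 at a log2 change of -0.31, so whether Cd74 was called in footprints turned on the test used. With the replicate block the edgeR FDR was 0.186.

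H2-DMa and H2-DMb1 encode the alpha and beta chains of DM. H2-DMa had 10.02, 12.7 and 14.3 CPM in RNA-seq of the libraries labelled WT and 13.6, 10.9 and 9.36 CPM in those labelled KO (log2 change -0.14, SE 0.19, edgeR FDR 0.703). Its footprints were at 24.4, 28.4 and 24.1 CPM in WT and 31.5, 26.8 and 32.2 CPM in KO (0.21, SE 0.10, edgeR FDR 0.207). The groups overlapped in both assays, and the footprint value was positive where that of the class II chains was negative. H2-DMb1 had 3.18, 3.63 and 3.58 CPM in RNA-seq of WT-labelled and 2.78, 2.61 and 2.495 CPM of KO-labelled libraries, from 122 reads in all (-0.40, SE 0.26, edgeR FDR 0.342). Its footprints were at 4.18, 4.25 and 5.02 CPM in WT and 4.27, 4.16 and 3.19 CPM in KO (-0.13, SE 0.19, edgeR FDR 0.665). The RNA-seq groups of H2-DMb1 did not overlap, and its footprint groups did. H2-DMb2 is a near-identical copy of H2-DMb1, and reads that align to several places were counted apart, which makes the counts of both uncertain. The values of H2-DMb2 had the opposite sign, with groups that overlapped in both assays. Its log2 change was 0.11 in RNA-seq (edgeR FDR 0.837) and 0.08 in footprints (edgeR FDR 0.888).

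H2-Oa, the alpha chain of DO, was higher in every KO library than in every WT library in both assays, and was called in footprints. Its footprints were at 27.3, 26.6 and 25.7 CPM in WT and 35.4, 36.5 and 37.8 CPM in KO. The libraries of each genotype lay close together. The footprint mean rose from 26.5 ± 0.814 CPM to 36.6 ± 1.18 CPM (SD, n = 3), a log2 change of 0.45 (SE 0.05, edgeR FDR 0.00274). The call stood in each of the 6 omissions of 1 library (FDR 0.0110 to 0.0218) and without replicate 3 of both genotypes (FDR 0.0338), and was lost with the replicate block (FDR 0.0636). In RNA-seq H2-Oa had 7.31, 7.11 and 8.26 CPM in the libraries labelled WT and 9.95, 10.7 and 8.98 CPM in those labelled KO, from 342 reads (0.36, SE 0.16, unadjusted p 0.0227, edgeR FDR 0.136). These groups did not overlap either. The authors' deposited table gives H2-Oa as higher in footprints, with a log2 change of 0.41 and an adjusted p of 0.00187. H2-Ob, which encodes the beta chain of DO and is not among the 8 genes, averaged 10.9 ± 0.653 CPM in the WT and 12.7 ± 0.832 CPM in the KO footprints (SD, n = 3), a log2 change of 0.22 that was not called (edgeR FDR 0.114).

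Ciita encodes the transactivator that the other genes depend on in antigen-presenting cells. It had 9.22, 11.2 and 14.1 CPM in RNA-seq of the libraries labelled WT and 11.6, 9.71 and 7.11 CPM in those labelled KO (log2 change -0.30, SE 0.23, edgeR FDR 0.473). Its footprints were at 7.90, 9.18 and 7.30 CPM in WT and 7.70, 6.50 and 8.59 CPM in KO (-0.17, SE 0.13, edgeR FDR 0.440). The groups overlapped in both assays. In RNA-seq Ciita had its highest level in the library labelled WT 3 and its lowest in KO 3, as the class II chains did, and in footprints it did not.

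**Figure D2:**
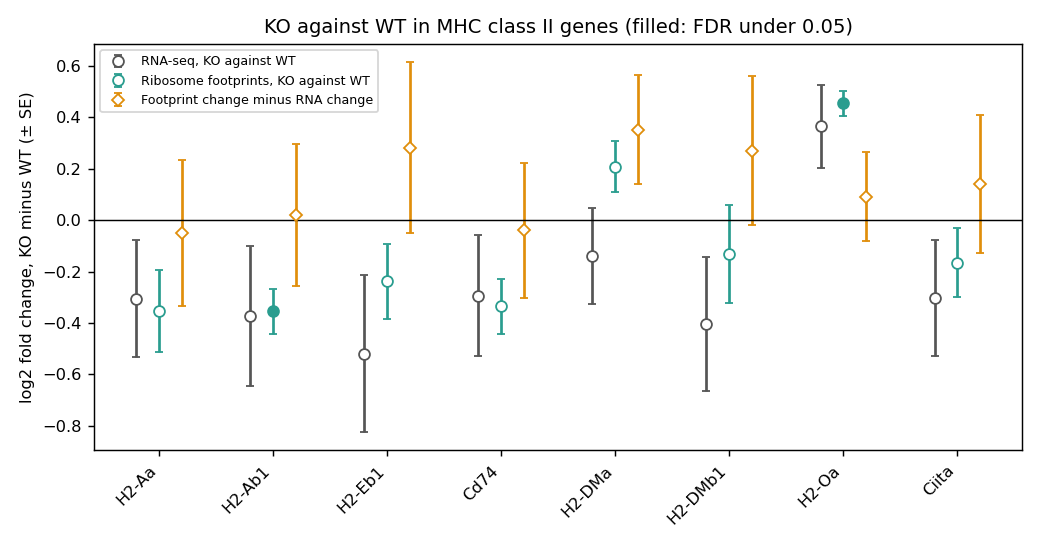
Log2 fold change of KO against WT for the 8 genes in RNA-seq (grey) and in footprints (green), and the interaction of both (orange diamonds), with bars of 1 SE from the edgeR fits. Filled symbols are called at an FDR under 0.05: H2-Ab1 (-0.36) and H2-Oa (0.45), both in footprints.

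Groups that did not overlap were found for 2 of the 8 genes in RNA-seq (H2-DMb1 and H2-Oa) and for 3 in footprints (H2-Ab1, Cd74 and H2-Oa), beside 30.9% and 38.1% of all genes tested. Bulk counts of this kind cannot tell fewer cells of a type from less RNA per cell. Strand is not given for the counting, and the annotated spans of Cd74, Ciita, H2-DMa and H2-Oa overlap those of other genes in RefSeq (Mir5107, LOC115488669 with Dexi, Brd2 and BC051537), so reads of an overlap cannot be assigned with certainty.

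The 8 genes did not vary as 1 block among the libraries. H2-Aa, H2-Ab1, H2-Eb1 and Cd74 were highest in WT replicate 3 and lowest in KO replicate 3 in both assays. With Ciita and H2-DMa this order of the extreme libraries held for 6 of the 8 genes in RNA-seq, and with H2-DMb1 for 5 of 8 in footprints, beside 21.8% and 19.4% of all genes tested. Since same-numbered libraries mirrored each other, a high WT replicate 3 and a low KO replicate 3 are not separate observations. In RNA-seq the highest library lay 2.11-fold above the lowest for H2-Aa, 2.45-fold for H2-Ab1, 2.95-fold for H2-Eb1 and 2.16-fold for Cd74. Among 9756 genes whose log2 CPM averaged 3 or more, the median of that ratio was 1.33 and the 95th percentile 2.06, so these 4 genes lay among the most variable. In footprints the ratios were 1.91, 1.59, 1.73 and 1.60, beside a median of 1.25 and a 95th percentile of 1.88 over 8652 genes. H2-Oa spanned 1.498-fold in RNA-seq and 1.47-fold in footprints.

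The summed level of the 8 genes followed Cd74 and the chains. It was 266, 313 and 411 CPM in the RNA-seq libraries labelled WT and 327, 287 and 189 CPM in those labelled KO, groups that overlap, with a log2 ratio of the means of -0.30. In footprints the sum was 1504, 1632 and 1877 CPM in WT and 1483, 1378 and 1182 CPM in KO, a log2 ratio of -0.31 between groups that do not overlap. The footprint groups were separated by the gap between WT replicate 1 and KO replicate 1, the smallest distance between any WT and KO library. Without replicate 3 of both genotypes the log2 ratio of the sums was 0.08 in RNA-seq and -0.13 in footprints, and the RNA-seq log2 fold changes of H2-Aa, H2-Ab1, Cd74, Ciita and H2-DMa turned positive (0.08 to 0.13). H2-Eb1 went to -0.0043 in RNA-seq and -0.0015 in footprints, and H2-DMb1 to -0.0031 in footprints. The omission of the library labelled KO 3 alone moved the RNA-seq value of H2-Aa to -0.10, of H2-Ab1 to -0.14, of H2-Eb1 to -0.25, of Cd74 to -0.09 and of Ciita to -0.10, and turned that of H2-DMa (0.00029). The omission of the library labelled WT 3 alone gave -0.13 for H2-Aa, -0.16 for H2-Ab1, -0.29 for H2-Eb1, -0.11 for Cd74, -0.13 for Ciita and -0.02 for H2-DMa. The size of the RNA-seq values thus rests on replicate 3 for these 6 genes. Because same-numbered WT and KO libraries mirrored each other, the omissions of WT 3 and of KO 3 are not separate observations. In footprints without WT 3 or without KO 3, H2-Aa was at -0.22 or -0.23, H2-Eb1 at -0.11 or -0.13 and H2-DMb1 at -0.07 in both.

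**Figure D3:**
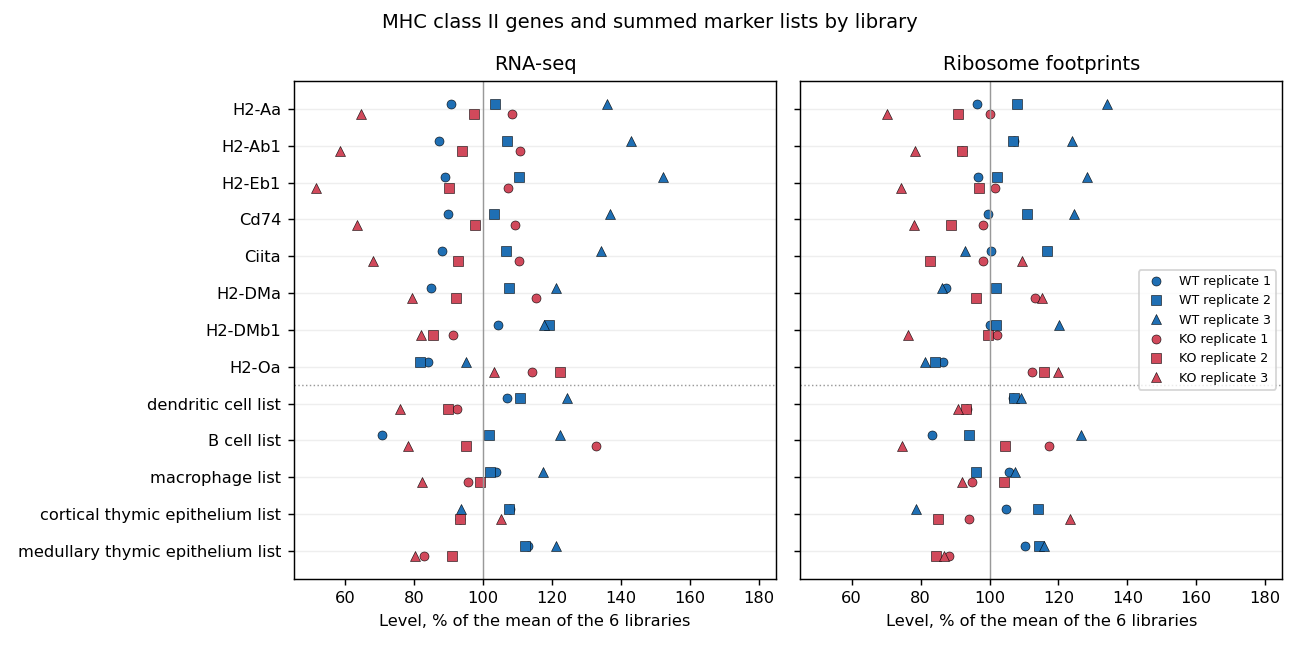
Level of each of the 8 genes, and of 5 marker lists summed without their most abundant gene, in every library as a percent of the mean of the 6 libraries of its assay. Blue is WT, red is KO and the shape gives the replicate number; WT replicate 3 lies far right and KO replicate 3 far left for H2-Aa (136% and 64.5% in RNA-seq), whereas for H2-Oa the genotypes lie apart in footprints (81.4% to 86.5% in WT, 112% to 119.8% in KO).

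The genes whose levels were most like the summed level of the 8, by the mean of the Pearson correlations over the 6 RNA-seq and the 6 footprint libraries, were Vars (0.994), Sap30bp (0.993), Cox4i1 (0.990), Nup85 (0.989) and Creld2 (0.987). They were picked from 8094 genes whose log2 CPM averaged 3 or more in both assays, of which 136 had a mean correlation over 0.9. None of the 5 was called in either assay (edgeR FDR 0.316 to 0.704 in RNA-seq and 0.0795 to 0.152 in footprints). The points of each correlation are 6 libraries that share the mirrored values described above. Among the 8 genes themselves, H2-Oa correlated with the sum at -0.08 in RNA-seq and -0.85 in footprints, and Ciita at 0.99 and -0.09.

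No shift of footprints relative to RNA was called for the 8 genes. In the edgeR interaction of assay with genotype, fitted to the 12 libraries at once, 0 of 8 genes had an FDR under 0.05 and 0 had an unadjusted p under 0.05, and DESeq2 called 0. Over all genes tested 0.211% were called (0.535% by DESeq2) and 14% had an unadjusted p under 0.05. The interaction values ran from -0.05 for H2-Aa to 0.35 for H2-DMa (SE 0.21, edgeR FDR 0.493), with a median of 0.12 beside 0.01 over all genes. H2-Oa, called in footprints, had an interaction of 0.09 (SE 0.17, edgeR FDR 0.865), and H2-Ab1 one of 0.02 (SE 0.28, edgeR FDR 0.986). The footprint call of H2-Oa is therefore not shown to differ from its change in RNA.

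Within WT, most of the 8 genes had many footprints for their RNA. The log2 ratio of footprint CPM to RNA-seq CPM was 2.67 for Cd74, 2.45 for H2-Ab1, 2.20 for H2-Aa, 1.87 for H2-Eb1 and 1.81 for H2-Oa, beside a median of -0.20 over 11853 genes. These lay at the 98.9th, 98.4th, 97.4th, 95.2nd and 94.7th percentiles of those genes. H2-DMa followed at 1.05 (the 83.5th percentile) and H2-DMb1 at 0.37 (the 66.6th), and Ciita lay below the median at -0.50 (the 41.0th). Over the pairings of 1 WT library of each assay the ratio ran from 2.19 to 3.12 for Cd74, from 2.03 to 2.96 for H2-Ab1, from 1.67 to 2.73 for H2-Aa and from -0.95 to -0.01 for Ciita. The ranges of Cd74, H2-Ab1 and H2-Aa overlap, so their order is not resolved, and the range of Ciita lies apart from them. The KO values were 2.62 for Cd74, 2.44 for H2-Ab1, 2.11 for H2-Aa, 2.10 for H2-Eb1, 1.89 for H2-Oa, 1.42 for H2-DMa, 0.56 for H2-DMb1 and -0.32 for Ciita. Between 50.9% and 57.1% of RNA-seq reads lay outside annotated features, against 5.32% to 6.39% of footprint reads, and the part that transcript length and reads outside coding sequence have in these ratios was not tested.

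**Figure D4:**
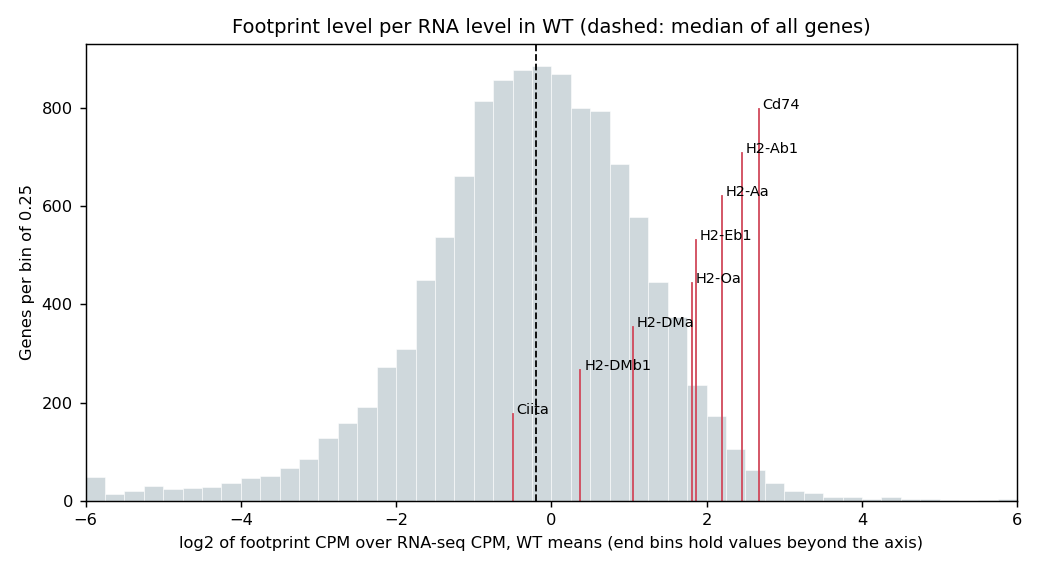
Histogram of the log2 ratio of footprint CPM to RNA-seq CPM in WT over 11853 genes tested in both assays, with the 8 genes marked. The end bins also hold values beyond the axis; Cd74 (2.67) lies furthest right of the 8 and Ciita (-0.50) left of the median (-0.20).

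Of 21 further genes listed for the class II pathway, 20 had a row and were tested in both assays. In RNA-seq 1 of the 20 was called, higher, with a median log2 fold change of -0.15 over the 20 and 15 negative values. In footprints 3 of the 20 were called, 1 higher and 2 lower, with a median of -0.04 and 10 negative values. Beside the 6.91% and 17.6% of all genes called, neither count sets the list apart, and the 4 called genes are given as single values. In the interaction 0 of the 20 were called by edgeR or DESeq2, and 4 had an unadjusted p under 0.05 (edgeR). All 4 calls were lost with the replicate block.

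The called protease genes were lower in KO footprints. Ctss encodes cathepsin S, which trims the invariant chain, and was at 95.4, 92.3 and 104 CPM in WT and 75.6, 77.8 and 68.7 CPM in KO footprints (log2 change -0.37, SE 0.06, edgeR FDR 0.0110, block FDR 0.0698). Lgmn encodes the asparaginyl endopeptidase legumain, and was at 51.5, 47.8 and 51.6 CPM in WT and 37.5, 40.4 and 37.3 CPM in KO footprints (-0.38, SE 0.05, edgeR FDR 0.00693, block FDR 0.0922). The genotypes did not overlap in either gene, and both calls stood in all 6 omissions of 1 library. Without replicate 3 of both genotypes Lgmn had an FDR of 0.0720. Their RNA-seq values were -0.32 for Ctss and -0.58 for Lgmn (edgeR FDR 0.180 and 0.163).

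The called regulators were higher. Rfx5, a subunit of the X box factor RFX, was at 42.8, 44.8 and 45.5 CPM in RNA-seq of the libraries labelled WT and 60.1, 57.8 and 56.5 CPM in those labelled KO (log2 change 0.39, SE 0.06, edgeR FDR 0.0166). The groups did not overlap, but the call was lost with the block (FDR 0.360), under DESeq2 (adjusted p 0.0547) and on the omission of any 1 library (FDR 0.0561 to 0.0847). In footprints Rfx5 had a log2 change of 0.17 (edgeR FDR 0.114). Creb1, which encodes a factor that binds beside RFX, was at 174, 169.8 and 167 CPM in WT and 191, 196 and 198 CPM in KO footprints (0.19, SE 0.03, edgeR FDR 0.0128, block FDR 0.283). Its call stood in 2 of the 6 omissions of 1 library and was lost without WT replicate 2 or 3 or KO replicate 2 or 3 (FDR 0.0515 to 0.0674). The most abundant uncalled genes of the list in RNA-seq included Ctsb (105 and 104 CPM in the means of the libraries labelled WT and KO), Ctsd (92.5 and 84.0 CPM) and Ctsl (91.1 and 89.1 CPM), which encode lysosomal cathepsins. Beside them stood Nfyb (76.1 and 70.3 CPM) and Nfyc (33.4 and 29.02 CPM), subunits of the Y box factor NF-Y, and Rfxank (40.5 and 26.2 CPM), a subunit of RFX, none of them called in either assay. The RNA-seq log2 changes of Rfxank, Nfyc and Nfyb were negative (-0.66, -0.21 and -0.11, edgeR FDR 0.146, 0.0963 and 0.616). In footprints they were -0.10, 0.15 and 0.05.

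Marker lists of the cells that carry class II differed in whether their summed levels overlapped between the genotypes. For single genes the groups did not overlap in 30.9% of all genes tested in RNA-seq and 38.1% in footprints. No such share was worked out for sums of genes. The part of cell makeup in the class II values was not tested. No gene of these lists was at 0 in all libraries. Each list is given whole and, as a choice made after seeing the data, without its most abundant gene. The whole dendritic cell list overlapped between genotypes (1177 to 1390 CPM in WT-labelled and 1269 to 1473 CPM in KO-labelled RNA-seq, 1954 to 2098 CPM in WT and 1918 to 2052 CPM in KO footprints). Without Ccr9, which thymocytes also express, its summed level was 113 to 131 CPM in WT-labelled and 80.0 to 97.3 CPM in KO-labelled RNA-seq, and 270.0 to 276 CPM in WT and 229.5 to 236 CPM in KO footprints, with no overlap in either. Of its genes 2 of 13 tested were called in RNA-seq and 3 of 14 in footprints, all lower. Among all genes tested 6.91% were called in RNA-seq and 17.6% in footprints, so the footprint count does not set the list apart. Siglech, a marker of plasmacytoid dendritic cells, fell in footprints (log2 change -1.03, edgeR FDR 0.0126, block FDR 0.0444). It was also called lower in RNA-seq (-1.07, edgeR FDR 0.0165), a call lost with the block (FDR 0.275) and under DESeq2 (adjusted p 0.223). Ccr7, a receptor of mature dendritic cells and of maturing thymocytes, fell in RNA-seq (-0.64, edgeR FDR 0.00621, block FDR 0.110). Its RNA-seq means were 41.2 and 26.4 CPM in the libraries labelled WT and KO. Ccr7 is counted in the sum without Ccr9, so that sum may also hold reads from thymocytes. In footprints Ccr7 was at 133 and 124 CPM in the WT and KO means, with groups that overlapped (-0.10, edgeR FDR 0.309). DESeq2 called the interaction of assay with genotype for Ccr7, and edgeR did not. Ccr9, left out of the sums, was at 1171 and 1275 CPM in the RNA-seq means of the libraries labelled WT and KO (edgeR FDR 0.499). Irf8 and Flt3 fell in footprints (-0.55 and -0.50, edgeR FDR 0.0224 and 0.0115, block FDR 0.0906 and 0.222). Neither was called in RNA-seq, where the groups of both overlapped (-0.15 and -0.46, edgeR FDR 0.674 and 0.4735). Of the 6 omissions of 1 library, the call of Siglech stood in 2 in RNA-seq and 5 in footprints, that of Ccr7 in 6, that of Irf8 in 4 and that of Flt3 in 5.

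The whole medullary epithelium list was at 42.3 to 44.2 CPM in WT-labelled and 29.8 to 31.7 CPM in KO-labelled RNA-seq, with no overlap, and at 104.5 to 124 CPM in WT and 84.6 to 105 CPM in KO footprints, which overlap. Without Cldn4 the genotypes did not overlap in either assay: the sum was at 26.5 to 28.6 CPM in WT-labelled and 19.0 to 21.5 CPM in KO-labelled RNA-seq, and at 71.8 to 75.3 CPM in WT and 55.0 to 57.4 CPM in KO footprints. Lower calls were made for 2 of 7 tested genes in RNA-seq (Krt5 and Tnfrsf11a, -1.07 and -0.78) and 3 of 12 in footprints (Tnfrsf11a, Krt14 and Epcam, -0.88, -1.02 and -0.50), each lost with the block. The shares over all genes tested were 6.91% in RNA-seq and 17.6% in footprints. Of these calls only that of Krt14 stood in all 6 omissions of 1 library, and the others in at most 1. Aire, the regulator of tissue antigen display in these cells, was at 3.57 and 3.07 CPM in the RNA-seq means of the libraries labelled WT and KO (edgeR FDR 0.561) and at 1.45 and 1.83 CPM in those of WT and KO footprints (edgeR FDR 0.864). Cldn4 was at 16.2 and 10.97 CPM in RNA-seq (edgeR FDR 0.0834) and at 42.2 and 36.7 CPM in footprints (edgeR FDR 0.457). The footprint groups of both genes overlapped. In the cortical epithelium list the genotypes overlapped in both assays, whole (169.0 to 199.5 against 189.7 to 220.2 CPM in RNA-seq, and 352 to 483 against 415 to 564 CPM in footprints) and without Ly75 (118 to 136 against 117 to 133 CPM in RNA-seq, and 223 to 324 against 242 to 351 CPM in footprints). Ly75 itself, an endocytic receptor of cortical epithelium and dendritic cells, rose in both assays (0.49, edgeR FDR 0.0449, block FDR 0.240 in RNA-seq; 0.42, edgeR FDR 0.0356, block FDR 0.0816 in footprints; kept in 0 and 2 of the 6 omissions), and no other gene of that list was called. Ccl25, a chemokine of cortical epithelium, was at 58.4 and 60.1 CPM in the RNA-seq means (edgeR FDR 0.827).

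The whole B cell list overlapped between the genotypes in both assays (261 to 317 against 310.5 to 375 CPM in RNA-seq, and 433 to 588 against 454 to 624 CPM in footprints), and so did its sum without Ighm, which ran from 36.4 to 63.2 CPM in WT-labelled and 40.3 to 68.5 CPM in KO-labelled RNA-seq, and from 184 to 279 CPM in WT and 165 to 259 CPM in KO footprints. In RNA-seq 0 of its 13 tested genes were called by edgeR or DESeq2, and 4 had an unadjusted p under 0.05 (edgeR). Of 14 in footprints 2 were called, Cd79b of the B cell receptor (0.48, edgeR FDR 0.00416, block FDR 0.0466) and Blk (0.50, edgeR FDR 0.0239, block FDR 0.328), both higher. Among all genes tested 17.6% were called in footprints, so neither this count nor that of the macrophage list below sets its list apart. In RNA-seq 6.91% of all genes were called and 23.8% had an unadjusted p under 0.05 (edgeR). Ighm and Igkc, immunoglobulin chains, were at 242 and 18.1 CPM in the RNA-seq mean of the libraries labelled WT and at 285 and 12.7 CPM in those labelled KO (edgeR FDR 0.119 and 0.432). The call of Cd79b stood in all 6 omissions of 1 library and that of Blk in 0. The whole macrophage list overlapped in RNA-seq (105 to 119 CPM under the label WT, 94.9 to 109 CPM under KO) and did not in footprints (468 to 505 CPM in WT, 407 to 446 CPM in KO). Without its most abundant gene the reverse held: it did not overlap in RNA-seq (67.8 to 78.1 against 54.8 to 65.8 CPM, without Lyz2) and did in footprints (286 to 319.5 against 273 to 309.8 CPM, without Vcam1). In RNA-seq 0 of its 10 tested genes were called by edgeR or DESeq2, and 2 had an unadjusted p under 0.05 (edgeR). In footprints 2 of 12 were called, the receptor Mertk (-0.98, edgeR FDR 0.00162, block FDR 0.0389) and C1qa (-0.26, edgeR FDR 0.0495, block FDR 0.277), both lower, with the call kept in 6 and 0 of the 6 omissions. The RNA-seq values of Mertk and C1qa were -0.38 and -0.24 (edgeR FDR 0.407 and 0.461). Lyz2 and Vcam1 were at 38.7 and 22.7 CPM in the RNA-seq mean of the libraries labelled WT and at 42.9 and 21.9 CPM in those labelled KO.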

How the data were processed

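The counts used here are those the authors deposited, 1 table per assay of whole-number reads per Ensembl gene. The authors' file names call them adjusted, and what was adjusted is not stated. FastQC, Bowtie2 2.5.1, STAR 2.7.10a, HTSeq 2.0.3 and DESeq2 1.40.2 are named in the submitters' processing notes, without their roles; build, annotation and strandedness were not given in the sources used here. Rows for reads assigned to no gene, per the file headers, were left out of library sizes. The authors' deposited tables of their own comparison were used for the values credited to them, and 12 columns of per-library values in them were not used. Symbols were matched by versioned gene ID for 54587 rows, without the version for 567 and through the authors' tables for 6; 175 rows had none.

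The test was edgeR's quasi-likelihood test (version 4.0.16, R 4.3.3) of KO against WT within an assay, after filterByExpr (minimum count 10) and TMM scaling, with Benjamini-Hochberg adjustment; a model of all 12 libraries gave the interaction of assay with genotype. The SE is the size of the log2 fold change over the square root of F, or over the normal deviate of p where edgeR's Poisson bound set p. The fits were run on simulated counts drawn independently for each library, without the mirrored deviations of the deposited counts. That run therefore cannot tell whether the p-values hold for mirrored counts. CPM are TMM-scaled. No transcript lengths were used, so shares of summed CPM and the term most abundant refer to reads and depend on transcript length. Alternatives were DESeq2 1.42.0, RLE factors, no filter, a replicate block, 1 joint fit, an FDR of 0.1 and the omission of each library; the omission of replicate 3 of both genotypes, and marker sums without the most abundant gene, were chosen after seeing the data. The members and lists (further pathway genes, and markers of dendritic cells, B cells, macrophages, cortical and medullary epithelium, thymocytes, erythroid cells, stroma and endothelium, and neutrophils) were chosen with earlier results of these data known. Named were all members, called and the most abundant pathway genes, the most abundant and up to 3 called genes per marker list and assay, and the 5 genes most like the summed members; H2-Ea-ps, H2-Ob, H2-DMb2 and Aire were added after their values were seen. No pairing is labelled, so the main test had no replicate block, and the block was run as an alternative. Same-numbered WT and KO libraries deviated in opposite directions, as described above, so the numbers do link libraries. The test without the block takes the libraries of an assay as independent, which the mirrored deviations contradict, so its FDRs may be too small. In footprints the SE of H2-Oa was 0.048 without the block and 0.113 with it. For H2-Aa it was 0.160 and 0.153.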

Additional observations from a re-analysis of the deposited data

How the results depend on the processing

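Of the 8 genes, 0 were called in RNA-seq and 0 in the interaction under every alternative run. The count of 2 in footprints became 0 with the replicate block, 1 in the joint fit of the 12 libraries, and 1 in each omission of 1 library (range 1 to 1); it was 3 under DESeq2, with no filter and at an FDR of 0.1, where Cd74 joined. The replicate block changed no other call of the 8 genes. In the joint fit H2-Ab1 lost its call (edgeR FDR 0.195). Over all genes the block left 0.806% called in RNA-seq and 3.02% in footprints, and the block within each assay left 0.0169% in the interaction.

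Without replicate 3 of both genotypes the log2 ratio of the summed level moved to 0.084 in RNA-seq and -0.13 in footprints, and the RNA-seq log2 fold changes turned to 0.087 for H2-Aa, 0.084 for H2-Ab1, 0.105 for Cd74, 0.078 for Ciita and 0.13 for H2-DMa. In that setting the interaction turned to -0.30 for H2-Ab1, -0.0030 for H2-Eb1, -0.36 for Ciita and -0.092 for H2-Oa; DESeq2 turned that of H2-Ab1 to -0.0019. In the omissions of 1 library, RNA-seq of H2-DMa ran from -0.31 to 0.00029, and the interaction from -0.27 to 0.12 for H2-Aa, -0.23 to 0.24 for H2-Ab1, -0.0056 to 0.54 for H2-Eb1, -0.26 to 0.12 for Cd74 and -0.071 to 0.33 for Ciita. The cause of these turns was not tested. Depth limits H2-DMb1 most, with 122 RNA-seq reads in all, then H2-Oa with 342 and Ciita with 417.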

Other observations

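Genes of the neutrophil list, which shares none with the class II lists, had positive log2 changes in all 6 tested in RNA-seq and all 8 in footprints. Beside each count of calls below stand 6.91% of all genes called in RNA-seq and 17.6% in footprints. With the block these shares were 0.806% and 3.02%. In RNA-seq 2 of 6 tested genes were called, S100a8 and S100a9, the subunits of calprotectin (log2 change 1.204 and 1.19, edgeR FDR 0.0160 and 0.0341, block FDR 0.0534 and 0.0638). In footprints 5 of 8 were called, among them the granule genes Elane (1.15, edgeR FDR 0.00187) and Ngp (1.00, edgeR FDR 0.0372), and all 5 were also called with the block. Of the 6 omissions of 1 library the call of S100a8 stood in 3 in RNA-seq and 2 in footprints, that of S100a9 in 1, that of Elane in 6 and that of Ngp in 2. In the thymocyte list 1 of 14 genes was called in RNA-seq and 5 of 14 in footprints, of which 0 and 1 (Cd4) were called with the block. The RNA-seq call was lower (Tcf7, -0.26). In footprints 2 were higher and 3 lower, among the latter Ptcra (-0.37) and Rag1 (-0.30). Cd4, the co-receptor that binds class II, rose in footprints from 1953 ± 123 CPM to 2902 ± 174 CPM (SD, n = 3), by 0.57 on the log2 scale (edgeR FDR 0.00335, block FDR 0.0121) and had a log2 change of 0.19 in RNA-seq (edgeR FDR 0.0685). DESeq2 called the interaction of assay with genotype for Cd4, and edgeR did not. In the erythroid list 1 of 5 tested genes was called in each assay, lower (Hbb-bs in RNA-seq and Alas2 in footprints), and both calls were lost with the block (FDR 0.137 and 0.202). In the list of stroma and endothelium 2 of 8 were called in RNA-seq and 3 of 10 in footprints, all higher, of which 0 and 1 were called with the block; the latter was Eng (0.73, edgeR FDR 0.00142, block FDR 0.0158).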
